A study of Rattus norvegicus with 36 samples.

Results

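The genes described here had mean levels at least 8 times as high in the prefrontal cortex (PFC) of rats as in the nucleus accumbens (NAc), mostly of the same animals. They were chosen from the measured levels of all 36 RNA libraries, 18 of each region. A gene was taken when its mean over the 18 PFC libraries was at least 5 CPM and its PFC mean, plus 0.1, was at least 8 times its NAc mean, plus 0.1. CPM is the count of reads on a gene relative to all gene reads of its library, scaled to a common total with factors from the trimmed mean of M-values (TMM) taken over all 36 libraries. Of 32623 gene identifiers, 25910 had at least 1 count, 11313 reached the PFC minimum and 83 met both conditions. Leaving out 3 of these, which were among 6 genes set aside with the choice, gave 80 members. The 6 were left out by the identifiers supplied with the choice, whose names were not matched in a table here. The identifier supplied as Cck, a neuropeptide gene, was at 8.73 CPM in PFC with a ratio of only 1.23, so it is doubtful that it is the gene meant, and a gene meant to be left out may still be among the members. The region difference is therefore a property of the choice and is given below as a description with no test.

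The animals were 19 Sprague Dawley rats (spelled Sparague Dawley in the labels) trained in a touch screen version of a rat gambling task, in which choices carry different magnitudes and probabilities of reward and punishment. After their preference had settled, 9 were classed as risk-averse and 10 as risk-seeking. Each of the 4 groups, risk-averse PFC, risk-seeking PFC, risk-averse NAc and risk-seeking NAc, held 9 libraries. Codes shared by the sample titles place both regions of 17 animals in the series, while the risk-seeking animals N9 and R6 each gave 1 region. Every group was trained and no untrained animal is among the samples. The classes follow the animals' own choices and were not assigned, and the labels used here give no age or sex. The protocol names the medial PFC as the dissected tissue. Libraries held between 18436025 and 34761269 gene counts.

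The PFC is a layered cortex in which most neurons are glutamatergic pyramidal cells, mixed with GABAergic interneurons. The NAc is a part of the ventral striatum, where most neurons are GABAergic spiny projection neurons that receive glutamatergic axons from the PFC. Those axons carry little of the messenger RNA of their cell bodies, so RNA of pyramidal-neuron genes is usually scarce in dissected striatum. Both regions take part in choices between safe and risky rewards. The deposited tables list Ensembl gene identifiers without names, and none of these identifiers matched the name table used here. The members are therefore given by identifier, without a role, position or transcript length. Levels are compared between regions, animals and groups within a gene, and the order of CPM between genes also reflects transcript length, which was not used here. Marker lists of cortical layers, interneurons, spiny neurons, glia and blood could not be applied for the same reason. In pieces of tissue such as these, fewer cells of a type and less RNA per cell cannot be told apart.

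The members' PFC means ran from 5.68 to 2116 CPM with a median of 46.8. In 16 members the mean was 100 CPM or more, in 38 it lay between 20 and 100, and in 26 it was under 20. Their NAc means ran from 0.0909 to 152 CPM with a median of 2.34. The ratio of the region means, each plus 0.1, ran from 8.04 to 119 with a median of 13.3. It was under 12 in 36 members, between 12 and 20 in 21, between 20 and 50 in 16 and 50 or more in 7. The members just inside the 8-fold limit had ratios of 8.31, 8.25 and 8.04, and the genes just outside it had 7.98, 7.94 and 7.89. The members just inside the level limit had PFC means of 6.10, 5.73 and 5.68 CPM, and the genes just outside it had 4.93, 4.86 and 4.53. Exchanging the regions in the same rule gave 107 genes for the NAc, against 83 for the PFC.

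**Figure D1:**
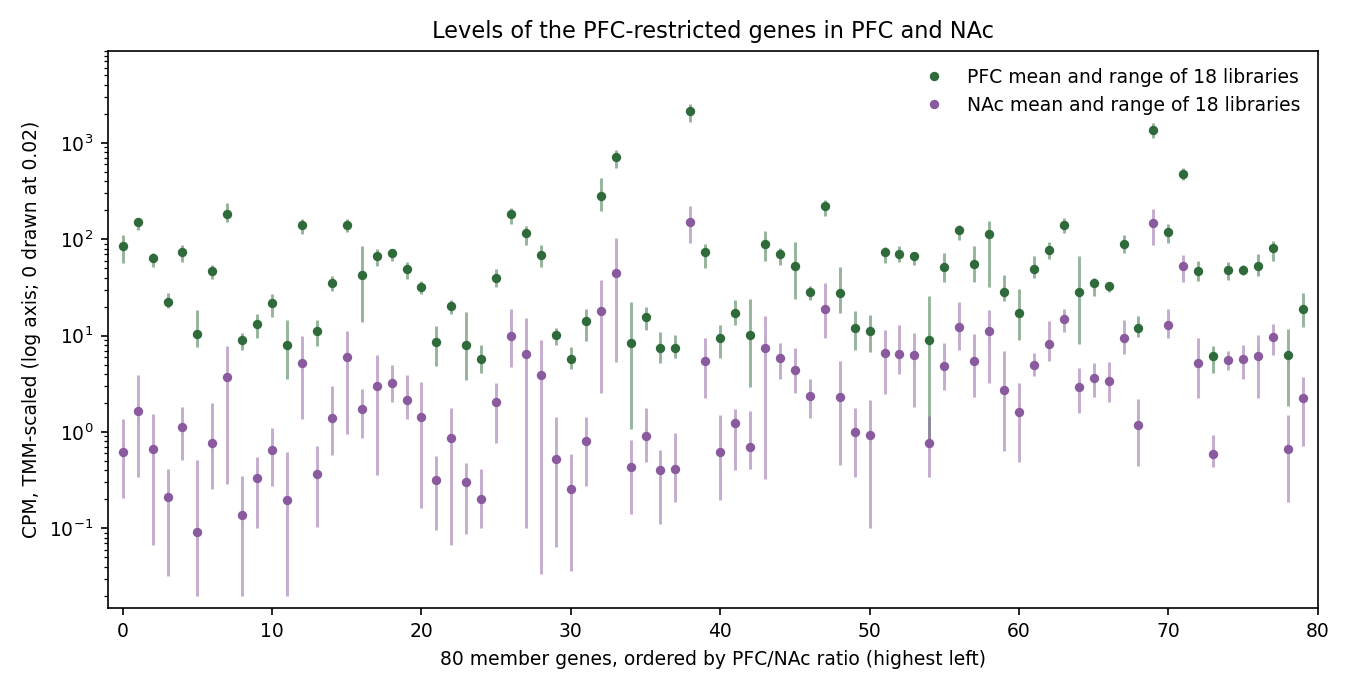
Mean CPM (point) and range over 18 libraries (line) of each of the 80 members in PFC and NAc, on a log axis, ordered by the ratio of PFC to NAc with the highest at the left. The ranges of both regions were apart in 79 of 80 members, and the NAc ranges, on this scale, were wider than the PFC ranges for most.

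A few members held most of the reads. Summed over the 80 members, the level was 8845 ± 453 CPM in PFC (SD, n = 18), from 7835 to 9729. The same sum was 681 ± 185 CPM in NAc (SD, n = 18), from 387 to 1016. These sums were 0.772% to 0.921% of a PFC library's gene counts and 0.0410% to 0.103% of a NAc library's. The 2 members of highest PFC level made up 39.2% of the PFC sum and the 10 highest made up 65.6%.

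The highest PFC level among the members was that of ENSRNOG00000016156. Its lowest, median and highest PFC libraries were at 1655, 2095 and 2543 CPM, and its NAc libraries at 90.5, 141 and 218 CPM. ENSRNOG00000009862 was next, at 1121, 1374 and 1595 CPM in PFC and 87.8, 133 and 208 CPM in NAc. In both genes the lowest PFC library was several times the highest NAc library, and the NAc level was still well above that of most members in the PFC. The members of highest ratio had lower PFC levels than this pair. ENSRNOG00000016999, with a ratio of 119, had lowest, median and highest levels of 56.3, 82.3 and 111 CPM in PFC and 0.208, 0.624 and 1.37 CPM in NAc. ENSRNOG00000010188, with a ratio of 85.0, was at 124, 151 and 167 CPM in PFC and 0.338, 1.32 and 3.94 CPM in NAc. Every PFC library of these genes lay far above every NAc library. The 1 member whose regions overlapped was ENSRNOG00000011648, whose lowest PFC library, at 0.831 CPM, was under its highest NAc library, at 1.47 CPM. In 3 members at least 1 NAc library held 0 counts, and a count of 0 allows up to 3 counts.

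The members varied somewhat more between the animals' PFC libraries than all genes of at least 5 CPM there did. The coefficient of variation (CV, the SD over the mean) over 18 PFC libraries had a median of 13.2% over the members, from 7.14% to 79.9%, against a median of 10.9% over the 11313 genes of at least 5 CPM in PFC. Within the preference groups, edgeR's estimate of the biological CV had a median of 11.7% for the members and 11.1% over the 15128 genes tested in PFC. In 50 of the 80 members the CV over PFC libraries was under 15%. The upper quartile of that CV was 20.4% for the members and 14.3% over the 11313 genes. For the biological CV within groups the upper quartiles were closer, at 16.7% for the members and 16.3% over the 15128 genes. The steadiest was ENSRNOG00000003005, whose lowest, median and highest PFC libraries were at 42.9, 49.2 and 53.7 CPM. ENSRNOG00000011425 was close to it, at 54.5, 67.3 and 74.3 CPM. Neither gene had a PFC library standing apart from the rest. The NAc levels varied more: the median CV over 18 NAc libraries was 39.8%, and 73 of the 80 members had a larger CV in NAc than in PFC. The NAc values also rest on far fewer counts.

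Single PFC libraries also stood out for the members as a whole. The library of the risk-seeking animal BR5 had the lowest summed member level, 7835 CPM, with the next at 8333 CPM, and it was the lowest library for 17 of the 80 members. It was also the lowest for ENSRNOG00000020650, a gene that is no member, at 1771 CPM in a PFC range of 1771 to 2492. That identifier was supplied as Slc17a7, the vesicular glutamate transporter of cortical excitatory neurons, and its name was not matched in a table here. In PFC the summed member level thus fell in a narrow band, with a CV of 5.12%, against 27.1% in NAc.

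**Figure D2:**
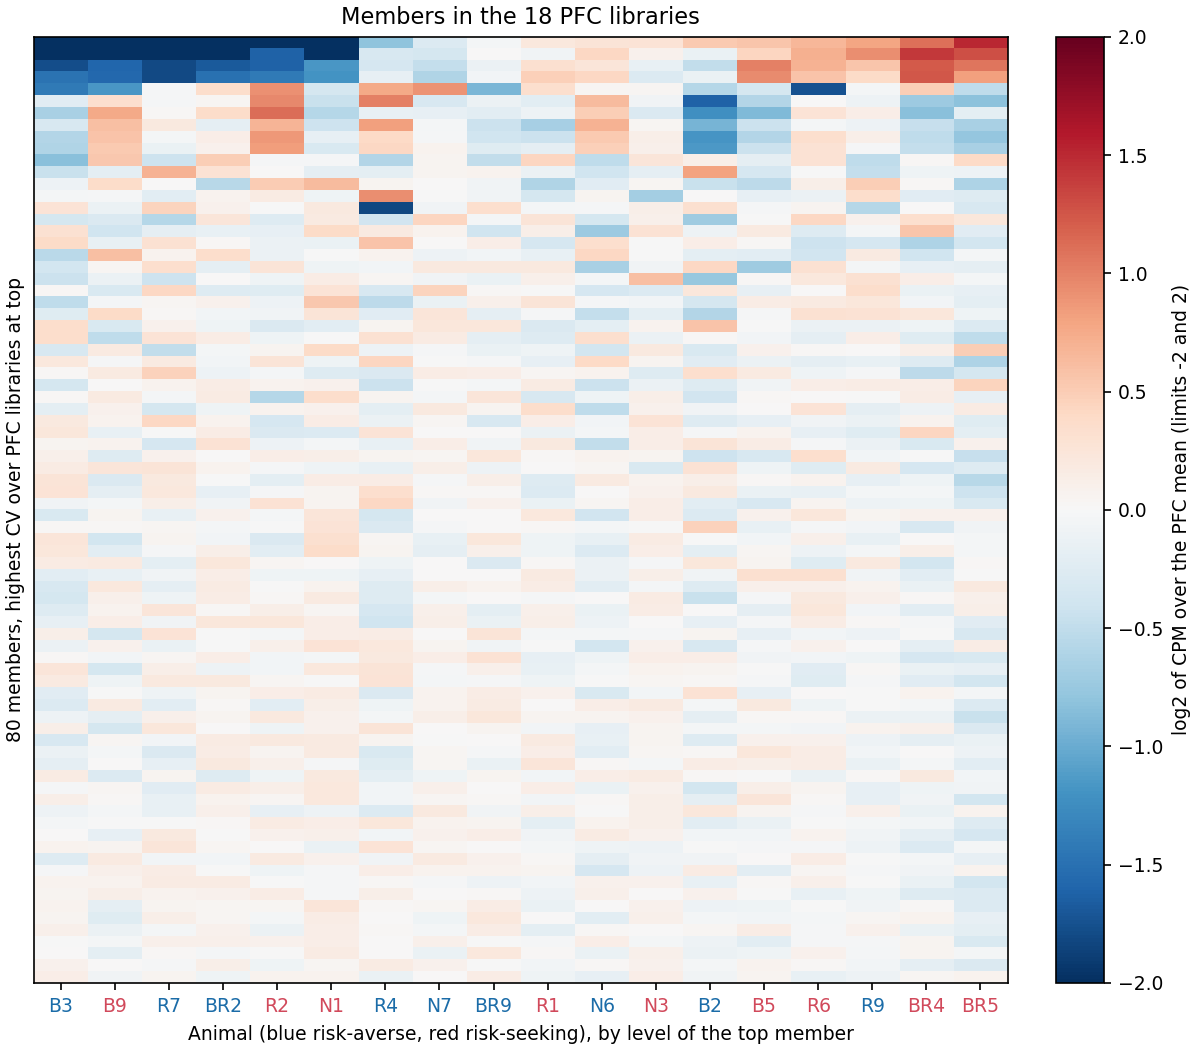
Level of each member (row) in each of the 18 PFC libraries (column) as the log2 of its CPM over its PFC mean, with the members of highest CV at the top and animals ordered by the level of the top member. The 4 top members share the 6 lowest animals at the left, and the members ranked 6 to 10 follow another order of animals. The member ranked 5, lowest in R6, is in neither group. Most rows below are near 0 in every library.

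In 7 members the CV over PFC libraries was above 40%, and in 12 the highest PFC library was at least 3 times the lowest. The widest range was that of ENSRNOG00000011648, at 0.831, 9.55 and 25.5 CPM in its lowest, median and highest library, a span of 30.7 times. ENSRNOG00000018215 followed at 1.09, 7.77 and 22.2 CPM, a span of 20.4 times. Both genes were split into low and high libraries with a gap between them. In ENSRNOG00000011648 the 6 lowest libraries were at most 1.57 CPM and the other 12 at least 5.13. In ENSRNOG00000018215 the 6 lowest were at most 2.70 CPM and the other 12 at least 6.51. The 6 libraries were those of B3, B9, BR2, N1, R2 and R7 in both genes, 3 risk-averse and 3 risk-seeking animals.

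The same 6 animals were the lowest in the 2 members next in CV, ENSRNOG00000016957 and ENSRNOG00000055049. In the first, the 6 were at most 12.8 CPM and the other 12 at least 20.2. In the second, they were at most 4.46 CPM and the others at least 6.69. BR4 or BR5 was the highest library in all 4 genes. Among all 11313 genes of at least 5 CPM in PFC, 28 had these 6 libraries below the other 12, which is 0.248%. The 6 libraries were picked from the values of these members, so the count of 4 of 80 is a description. No member had the 6 above all others. In the NAc the same animals did not stand apart: ENSRNOG00000011648 was at 0.467 to 1.47 CPM in the NAc libraries of these 6 animals and at 0.338 to 1.19 CPM in the others.

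Another order of animals appeared in the 5 members ranked 6 to 10 by CV, a group chosen after their values were seen. ENSRNOG00000005109 was at 23.8, 50.04 and 94.3 CPM in its lowest, median and highest PFC library. ENSRNOG00000015076 was at 13.7, 39.2 and 84.9 CPM. In all 5 the risk-averse animal B2 was the lowest library. The 4 highest libraries were those of R2, R4, N6 and B9 in 4 of the 5, and the exception, ENSRNOG00000009564, had BR2 in the place of R4. B9 and R2 were thus among the lowest animals for the first set and among the highest for this one. B2 also had the largest share of reads assigned to no gene among PFC libraries, 29.1%, and the part of read categories in these orders was not tested.

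A gap between 1 library and all the others was rare in PFC. In 2 members the second lowest library was at least 1.5 times the lowest, and in 0 members was the highest library at least 1.5 times the second highest. One of the 2 was ENSRNOG00000015076, described above. The other was ENSRNOG00000013171, where the risk-averse animal R4 was at 32.1 CPM and the next lowest animal at 76.1, with a median of 113 CPM. The same animal was also the lowest for that gene in NAc, at 3.26 CPM (70 counts), with the next lowest, R1, at 5.12 CPM and a median of 10.3.

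**Figure D3:**
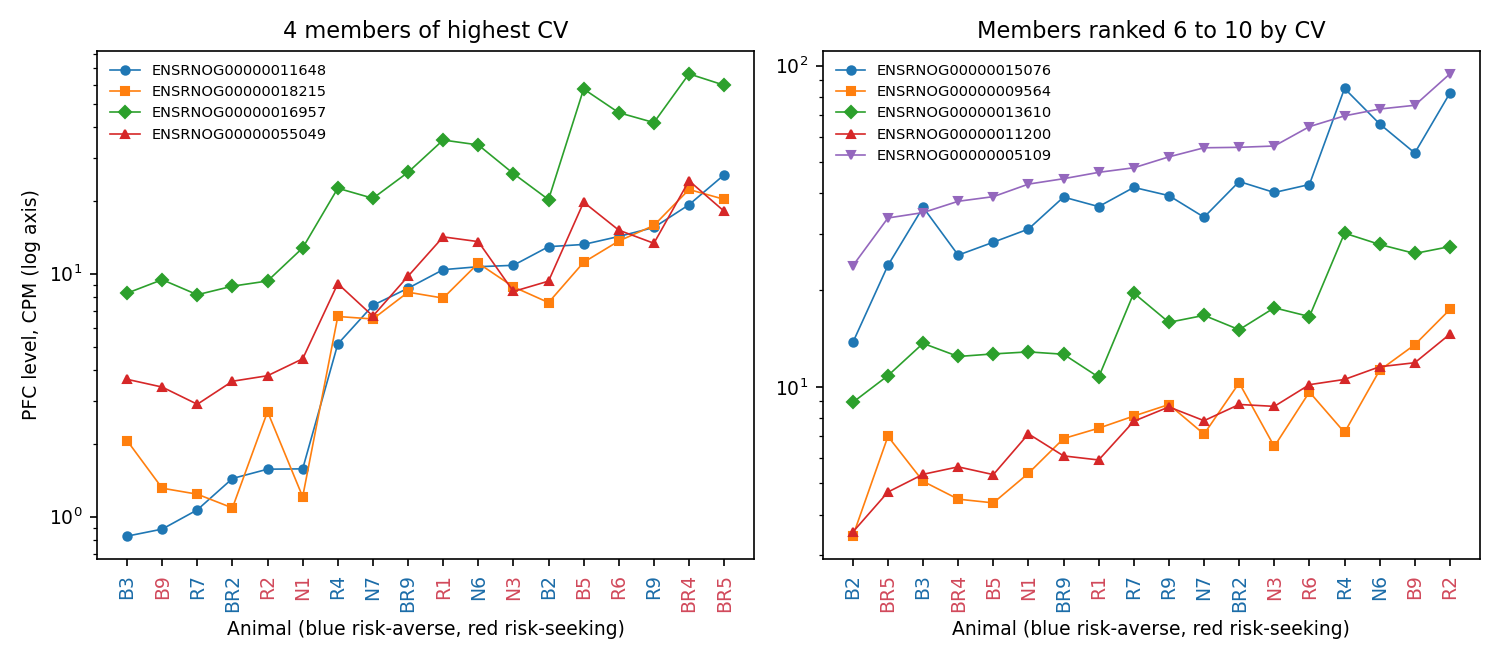
CPM (log axis) in the 18 PFC libraries for the 4 members of highest CV (left) and for the members ranked 6 to 10 (right), with animals ordered by ENSRNOG00000011648 on the left and by ENSRNOG00000005109 on the right. The 6 animals at the left of the first panel are under all others in each of its 4 genes, and B2 is lowest in each gene of the second panel.

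The small amounts of member RNA in NAc differed between animals. Summed over the members, the NAc libraries held 7.70% ± 2.09 (SD, n = 18) of the mean PFC sum. They fell into an uneven range, with the libraries of the risk-averse animal B2 and the risk-seeking animal R1 at the bottom. B2 was at 438 CPM, 4.95% of the PFC sum, and R1 at 387 CPM, 4.37%. The next 10 libraries lay between 516 and 667 CPM, 5.84% to 7.54%. The 6 highest, those of BR5, B3, R7, B5, N7 and R2, lay between 856 and 1016 CPM, 9.68% to 11.5%, and came from 3 risk-averse and 3 risk-seeking animals.

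The gene supplied as Slc17a7 fell into the same 3 ranges of animals with a far wider span. It was at 2.23 CPM in the NAc of B2 and 3.72 CPM in that of R1. In the 10 libraries of the middle range it was at 53.2 to 177 CPM, and in the 6 highest at 221 to 322 CPM. The 3 ranges did not overlap, and its PFC level was at least 1771 CPM in every animal. The part of RNA from excitatory neurons in the members' NAc level was not tested. The genes chosen by the exchanged rule summed to 9364 to 12956 CPM in NAc, with B2 the lowest at 9364 CPM and R1 at 11317. B2 also had the highest share of reads assigned to no gene in NAc, 33.0%.

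**Figure D4:**
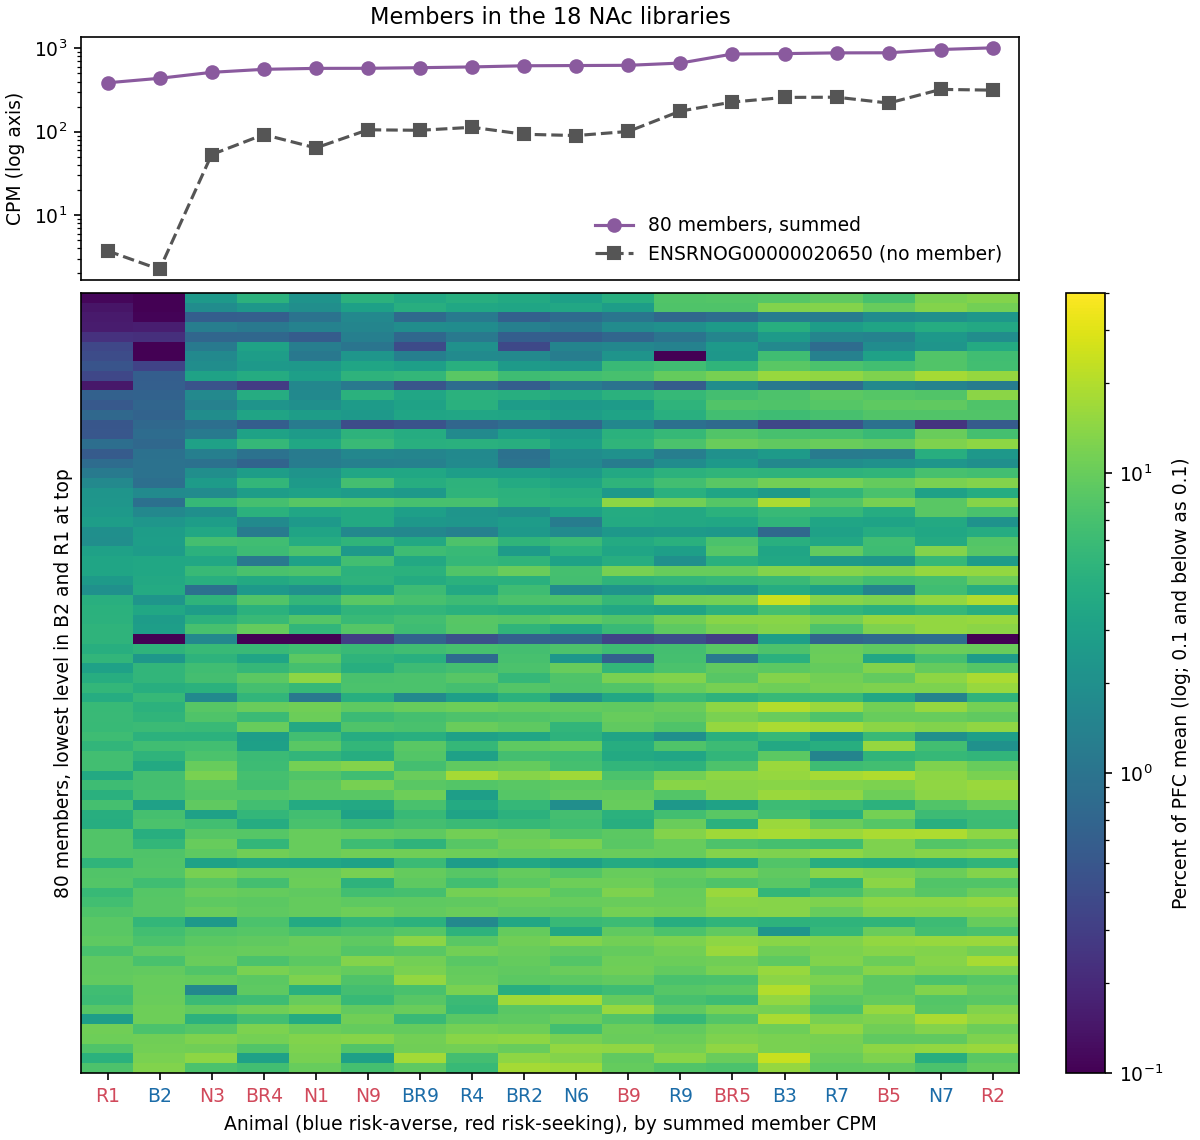
Top, summed CPM of the 80 members and CPM of ENSRNOG00000020650 in each NAc library on a log axis. Bottom, each member (row) in each NAc library (column) as a percent of its PFC mean on a log colour scale, with animals ordered by the summed level and the members of lowest level in B2 and R1 at the top. The upper rows are darkest in R1 and B2 and become lighter toward R2, while in many lower rows R1 and B2 are of a colour also seen in other libraries.

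The members did not follow that order alike. In 30 of 80 members the NAc libraries of both B2 and R1 lay below all 16 others, and in 0 members did both lie above them. Of the 70 members with enough NAc reads to be tested, 29 had both below, while 3.22% of all 15418 genes tested in NAc did. B2 and R1 were singled out from the level of the gene supplied as Slc17a7 and of the members, so this count is a description. B2 or R1 was the lowest NAc library for 47 members, and 1 of the 6 highest libraries was the highest for 69. Within the 30, the median of the other 16 libraries was 1.18 to 42.1 times the higher of B2 and R1, with a median of 3.31 times.

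At one end were members that were nearly without reads in B2 and R1. ENSRNOG00000026055 had 3 and 4 counts in the NAc of B2 and R1, 0.10 and 0.13 CPM, against 2.53, 5.45 and 15.1 CPM in the lowest, median and highest of the other 16 and 116 CPM on average in PFC. ENSRNOG00000028417 was at 0.03 and 0.10 CPM in B2 and R1, against 1.28, 2.72 and 9.04 CPM in the others and 68.7 CPM in PFC. The ranges of these genes in B2 and R1 were apart from those of the other animals. In all, 18 members were under 1% of their PFC mean in both B2 and R1.

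At the other end were members whose NAc level in B2 and R1 was like that of the other animals. ENSRNOG00000059081 was at 16.02 CPM in B2 and 9.33 CPM in R1, within the range of 7.08, 11.3 and 22.4 CPM in the others, with 125 CPM in PFC. ENSRNOG00000040052 was at 0.74 and 0.29 CPM, within the range of 0.19, 0.69 and 1.52 CPM, with 6.28 CPM in PFC. In 43 members the higher of B2 and R1 was 5% of the PFC mean or more, and 19 lay between 1% and 5%. In 42 members the median of the other 16 was within 1.5 times of the higher of B2 and R1, and in 14 it was at least 4 times that value. The members thus ran from genes near 0 in the NAc of B2 and R1 to genes whose level there lay within the range of the other animals. A value of B2 or R1 alone could lie above that range. ENSRNOG00000045558 was at 3.89 CPM in B2, against at most 3.84 CPM in the other 16. ENSRNOG00000010983 was at 0.518 CPM in R1, against at most 0.303 CPM in the other 16.

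Whether preference moved the members in PFC was tested with edgeR's quasi-likelihood test on all genes, with Benjamini-Hochberg adjustment over the 15128 genes tested. The choice of members used means over both preference groups, so this contrast was not used in it. With a threshold of 0.05 on the adjusted p, 11 of 80 members tested passed, which is 13.8%. Risk-seeking rats had the higher level in 4 of these and the lower level in 7. The share of all genes that passed was 23.3%, with 11.8% higher and 11.4% lower. The members' share lay under that background, and the difference of the shares was not tested. With no filter on low counts the order turned, at 12.5% of the members and 11.4% of all genes. That fit tested 24522 genes and the same 80 members, so its background is another set of genes. In the filtered fit of 15128 genes, the members' log2 fold changes, risk-seeking minus risk-averse, had a median of -0.03 against 0.01 over all genes. Of the members, 37 were above 0 and 43 below. The 11 that passed in that fit had changes of 0.199 to 0.432 in size on the log2 scale.

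The member of smallest p among those higher in risk-seeking rats was ENSRNOG00000019321. It is the third most abundant member, and with the doubt about the identifier supplied as Cck it could not be checked whether it was meant to be left out. Without it, 10 of 79 members passed, 12.7%. Its lowest, median and highest PFC libraries were at 541, 636 and 746 CPM in risk-averse rats and at 690, 753 and 832 CPM in risk-seeking rats. The means were 642 ± 83.7 and 769 ± 47.9 CPM (SD, n = 9 each), and the log2 fold change was 0.25 ± 0.06 (SE) with an adjusted p of 0.00968 by edgeR. ENSRNOG00000019716 was at 4.05, 5.24 and 5.74 CPM in risk-averse and 5.37, 6.20 and 8.03 CPM in risk-seeking rats. Its log2 fold change was 0.35 ± 0.09 (SE), with an adjusted p of 0.0101 by edgeR. In both genes all 9 risk-seeking libraries were above the risk-averse median, and the groups overlapped.

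Among the members lower in risk-seeking rats, the smallest p was that of ENSRNOG00000019184. It was at 11.7, 14.8 and 16.9 CPM in risk-averse and 9.34, 11.7 and 13.1 CPM in risk-seeking rats. The log2 fold change was -0.40 ± 0.08 (SE), with an adjusted p of 0.00437 by edgeR. ENSRNOG00000001658 was at 14.8, 20.5 and 27.6 CPM in risk-averse and 12.2, 16.9 and 18.9 CPM in risk-seeking rats, with a log2 fold change of -0.42 ± 0.10 (SE) and an adjusted p of 0.00842 by edgeR. In both, 0 of 9 risk-seeking libraries reached above the risk-averse median, and 1 or more risk-averse libraries lay inside the risk-seeking range. No member had preference groups that were apart in PFC, where 0.483% of all genes did.

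**Figure D5:**
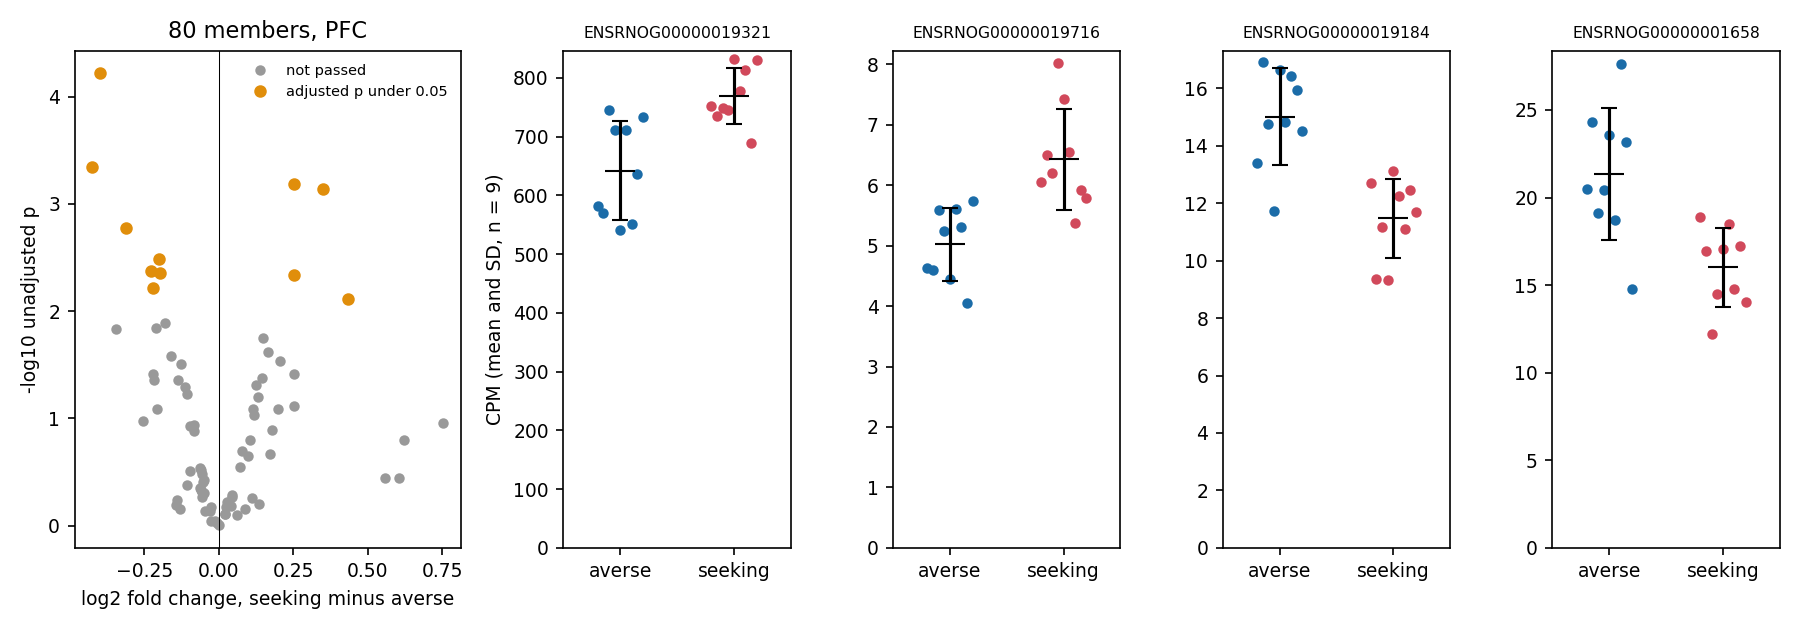
Left, log2 fold change (risk-seeking minus risk-averse) and -log10 of the unadjusted edgeR p of the 80 members in PFC, with the 11 that passed in orange. Right, CPM of the 4 named members in the 9 libraries of each group with mean and SD; the means of the groups are apart and the ranges overlap.

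Technical shares differed between the same groups. The share of PFC reads assigned to no gene was 25.01% ± 1.98 in risk-averse and 23.3% ± 0.666 in risk-seeking rats (SD, n = 9 each). The share of reads that fell on more than 1 gene was 0.655% ± 0.0417 and 0.719% ± 0.0331, and that of reads without a unique position was 12.9% ± 0.535 and 13.5% ± 0.185. With the first share as a covariate in the edgeR fit 1 member passed and 2.21% of all genes did. The log2 fold changes of the 4 named members stayed about as large there, at 0.22, 0.36, -0.45 and -0.41 in the order named. With the second share 0 members and 0% of all genes passed, and these changes were smaller, at 0.07, 0.15, -0.30 and -0.14. With the third share 0 members and 0.00661% of all genes passed, and the changes were 0.12, 0.27, -0.35 and -0.23. The 4 animals of highest unassigned share, B2, B3, BR9 and R7, were all risk-averse. Without them, in a fit of 5 against 9 libraries, 0 members and 0.00649% of all genes passed, while the changes were 0.23, 0.27, -0.43 and -0.38. The part of these shares in the members' differences was not tested otherwise. Leaving out R4, B3 or R7, all risk-averse, gave 6, 7 and 7 members, with 15.6%, 14.9% and 16.3% of all genes called. Leaving out both B2 and R1 gave 5 members and 11.9% of all genes, and fitting all 36 libraries together gave 4 members and 23.3%.

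The members with the most variable PFC levels had the largest differences in mean between preferences without passing. The 4 that share the 6 low animals had log2 fold changes of 0.56 to 0.75, the highest of all 80. ENSRNOG00000016957, the largest, had a risk-seeking mean of 35.8 CPM and a risk-averse mean of 21.1 CPM, with a log2 fold change of 0.75 ± 0.45 (SE) and an adjusted p of 0.237 by edgeR. Low and high animals were present in both groups.

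In NAc, 70 of the 80 members had enough reads to be tested, and the other 10 did not pass the filter on low counts. With edgeR 0 of the 70 passed, as did 0% of the 15418 genes tested, and DESeq2 also called 0 members, with 3.46% of all genes called. At an unadjusted p under 0.05 there were 5 of the 70 members, a smaller share than the 17.8% of all genes. In log2 fold change 22 members were above 0 and 48 below. ENSRNOG00000016957 had a risk-seeking mean of 3.38 CPM and a risk-averse mean of 2.53 CPM, with an adjusted p of 0.155 by edgeR. In ENSRNOG00000030530 these means were 1.44 and 1.05 CPM, with an adjusted p of 0.230 by edgeR. On the other side, ENSRNOG00000054809 had a risk-seeking mean of 5.28 CPM and a risk-averse mean of 7.66 CPM, with an adjusted p of 0.177 by edgeR. In ENSRNOG00000059081 these means were 10.2 and 14.1 CPM, with an adjusted p of 0.206 by edgeR. At these levels the groups overlapped in each of the 70 members tested, while 0.0519% of all genes tested had groups that were apart.

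The summed NAc level of the members was 695 ± 173 CPM in risk-averse rats and 667 ± 205 CPM in risk-seeking ones (SD, n = 9 each), so the means lay much closer together than the animals did. In PFC the sums were 8940 ± 369 and 8749 ± 528 CPM (SD, n = 9 each).

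An interaction term in a fit of the 36 libraries together asked whether a member's preference difference was of another size in PFC than in NAc. This fit took the libraries as independent and did not use the pairing of regions within animals. The alternative fit with the animal as a replicate block is given at the end. With edgeR 0 of 80 members passed, as did 0% of the 15936 genes tested. DESeq2 called 0 members, and its share of all genes is not given here. At an unadjusted p under 0.05 there were 6 of the 80 members, a larger share than the 2.43% of all genes. The difference of these shares was not tested. The smallest unadjusted p of a member was 6.2e-05 and the lowest adjusted p was 0.981, both by edgeR. The call of members in PFC and its absence in NAc is therefore not shown to be a difference between the regions.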

How the data were processed

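Total RNA of 36 tissue pieces was prepared with the TruSeq RNA version 2 kit after miRNeasy extraction and read as 101-bp pairs on a NovaSeq instrument, per the labels' protocols. The authors deposited 1 table of whole-number read counts per library, with gene identifiers and 5 rows for reads assigned to no single gene. Per the submitters' processing notes, the tools were Trimmomatic, STAR 2.5.3a, HTSeq 0.9.0 and edgeR, and the builds Rnor_6.0 and rn6. Which annotation release and which strand option the counting used is not given in the sources used here. Reads of a gene and of an overlapping antisense gene cannot be told apart, and near-identical gene copies are uncertain.

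The 5 category rows were left out of library sizes and tests. The shares of these categories have different bases. Reads assigned to no gene, at 22.1% to 33.0%, are a share of those reads, reads on more than 1 gene and gene counts together. Reads on more than 1 gene are a share of those reads and gene counts. Reads without a unique position are a share of all rows of a library. CPM used TMM factors over all 36 libraries. Preference was tested in each region, and as an interaction over all libraries, with edgeR 4.0.16 (R 4.3.3, filterByExpr, TMM, robust quasi-likelihood fit) and Benjamini-Hochberg adjustment over all genes tested. DESeq2 1.42.0 was an alternative. The code was tested on simulated data. Shared title codes pair the regions of 17 animals, so the animal was a replicate block in an alternative fit of the interaction. P-values of the fits within a region measure the spread between animals. The main interaction fit had no animal term and took the 36 libraries as independent.

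The members and lists were chosen with earlier results of these data known. The genes named were the 2 of highest PFC level, of highest ratio, and of highest and lowest CV, and the 2 of smallest p in each direction of a comparison, fewer than the rule allowed because the identifiers had no names. Of the identifiers, 0 matched the RefSeq table (GRCr8), so no sequence or coordinate is given and the lists of cortical, interneuron, receptor and channel genes were not analysed here. The gene supplied as Slc17a7 was used as the 1 marker. Genes named beyond these were chosen after their values were seen.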

Additional observations from a re-analysis of the deposited data

Results flagged for a closer look

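In each group of 9 libraries, the highest and the lowest value were compared with their nearest neighbour by Dixon's ratio at the 95% level, for the named members and the summed levels. Chance sets a library apart in about 1 in 20 such groups, which is 4.8 of the 96 groups examined. The flags numbered 5, about that many. ENSRNOG00000010983 stood apart in the NAc of the risk-averse animal B3, at 0.303 CPM against 0 to 0.0890 in the other 8, and in that of the risk-seeking animal R1, at 0.518 CPM against 0 to 0.173. This gene was named after its values were seen, for its level in R1. These values rest on 6 and 16 of the 45 NAc counts of that gene, and R1 was the animal with the lowest summed member level in NAc. ENSRNOG00000019716 was at 0.415 CPM in the NAc of the risk-seeking animal B5, against 0.104 to 0.234 in the others of its group. ENSRNOG00000030530 was at 23.4 CPM in the PFC of the risk-seeking animal BR5, against 15.96 to 19.4. ENSRNOG00000059081 was at 98.6 CPM in the PFC of the risk-averse animal N6, against 122 to 140.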

How the results depend on the processing

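The number of members called between preferences in PFC was 11. It was 1 with the share of reads assigned to no gene as a covariate, 0 with the share on more than 1 gene, 0 with the share without a unique position, 0 without the 4 animals of highest unassigned share, and 4 with all 36 libraries in one fit. Without animals B2 and R1, an alternative added after seeing the data, it was 5. Over all genes tested, the share called under these settings was 2.21%, 0%, 0.00661%, 0.00649%, 23.3% and 11.9%. DESeq2 gave 14, other size factors 12 and no filter on low counts 10, with 26.3%, 22.9% and 11.4% of all genes called. The members' share was above that of all genes in the last of these (12.5%), where 24522 genes were tested instead of 15128. Leaving out 1 library at a time gave 6 to 16, with 6 without R4, 7 without B3, 7 without R7 and 16 without BR2. The shares of all genes called in these 4 fits were 15.6%, 14.9%, 16.3% and 27.8%. The 4 members named for preference were called in every fit that left out 1 library, and each lost its call under 3 or more of the covariate and subset settings without changing sign. Their changes kept about their size with the unassigned share and shrank most with the share on more than 1 gene. The cause of these losses was not tested. The fits in NAc and of the interaction called 0 members under every alternative run. With the animal as a replicate block the interaction also gave 0, with a lowest adjusted p of 0.330 by edgeR. The main fits in NAc and of the interaction also called 0% of all genes, so a count of 0 does not set the members apart there. For the alternatives in NAc other than DESeq2, and for those of the interaction, the shares of all genes are not given here. At a 12-fold limit the rule kept 44 of the 80 genes. The other choices of limit, offset, scaling and animals gave 67 to 118. The NAc sum as a share of PFC was 7.47% to 7.89% without single libraries and 8.08% without B2 and R1. The depth limits values in NAc, where members near 0.1 CPM rest on a few counts.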
